A study of Mus musculus with 24 samples.

Results

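The metallothioneins Mt1, Mt2 and Mt3, the transcription factor Mtf1 and the zinc transporters Slc30a1 and Slc39a14 were followed in murine bone marrow-derived macrophages (BMDMs). These 6 genes were taken by symbol from the 35770 gene names of the expression table, and all 6 passed the filter for testing. Poly-A RNA was sequenced from 24 libraries, 3 for each combination of 4 media with vehicle or the synthetic oleanane triterpenoid CDDO-Me, a potent NRF2 activator. Groups were compared to ask how lung cancer-derived factors and the drug change macrophages. BMDMs were grown from C57BL/6 bone marrow with 20 ng/mL M-CSF. The media were base medium kept without cancer cells (media), or conditioned medium (CM) of Lewis lung carcinoma (LL2) cells, a murine lung cancer line, that were WT, KEAP1 KO or NRF2 KO. CM was collected over 48 h, made up 75% of the culture medium and was left on the BMDMs for 24 h with 100 nM CDDO-Me or vehicle. The KEAP1 and NRF2 genes were altered only in the cancer cells that conditioned the medium, so the macrophages of all 8 groups were of 1 genotype. The labels number the 3 libraries of a group as replicates without saying whether they came from separate mice.

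Metallothioneins are small cysteine-rich proteins that bind zinc and copper and buffer the free metal in the cell. Zinc activates MTF1, which binds metal response elements (MREs) in front of metallothionein genes and of Slc30a1, the zinc exporter of the plasma membrane (ZnT1). Slc39a14 (ZIP14) imports zinc, iron and manganese and is induced by interleukin-6 in liver. Macrophages use metallothioneins and zinc transporters to withhold zinc from microbes, and metallothioneins are also induced by glucocorticoids, cytokines and oxidants.

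In these BMDMs, CDDO-Me raised Slc30a1 by a log2 fold change of 1.09 to 1.16 in each of the 4 media, with no overlap between the 12 drug and the 12 vehicle libraries. Mt1 and Mt2, neighbours in the genome, both passed the test in opposite directions in WT CM: Mt1 fell and Mt2 rose with the drug. Mt2 also rose with CDDO-Me in KEAP1 KO CM, by a log2 fold change of 1.38, where Mt1 was lower (-0.51) but not past the test. In media Mt2 was lower with the drug (-0.44) and in NRF2 KO CM near unchanged (0.04), neither past the test. Mt3, which was at most 0.671 TPM in the vehicle libraries, reached 5.92 to 8.45 TPM in KEAP1 KO CM/CDDO-Me BMDMs. Mtf1 passed the test in none of the 16 comparisons by limma, with none at an unadjusted p under 0.05 either.

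Values are TPM, the share of a library's transcripts that a gene contributes after scaling for transcript length, and can be compared between genes. Fold changes are log2 differences of library-scaled TPM plus 1, with the standard error (SE), and every adjusted p is from limma with Benjamini-Hochberg adjustment over the 13661 genes tested, with a threshold of 0.05. TPM have a fixed sum in each library, so the depth of each library is unknown. The CDDO-Me libraries carried the drug response: Nqo1, an NRF2 target enzyme, rose from a mean of 3.37 to 134 TPM in media. Replicate 3 of NRF2 KO CM/vehicle and of NRF2 KO CM/CDDO-Me stood apart, with 15702 and 16299 genes above 0 against 17817 to 18993 in the other 22 libraries.

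Macrophage markers were present in every library, with Adgre1 at 350.4 to 929 TPM and Csf1r at 660.4 to 1599 TPM. Cd68 was at 631 to 2381, Itgam at 153 to 392.5, Mertk at 32.0 to 67.8 and Fcgr1 at 24.4 to 532 TPM. With CDDO-Me, Mertk and Fcgr1 rose and Cd68 fell past the test in WT CM and KEAP1 KO CM. Adgre1 also fell in WT CM. In media and NRF2 KO CM Itgam rose and Fcgr1 fell, and Cd68 fell in NRF2 KO CM. The summed macrophage level was 3955 to 4390 TPM in WT CM/vehicle and 2606 to 2804 TPM in WT CM/CDDO-Me. Fibroblast or stromal markers were also present, with 7 of 7 listed genes above 0 in 23 libraries and Col1a1 at 55.0 to 789.7 TPM. Their summed level was 769 to 1447 TPM in media/vehicle and 564 to 1695 TPM in media/CDDO-Me. In WT CM it was 545 to 1122 TPM with vehicle and 205 to 585 TPM with CDDO-Me. KEAP1 KO CM libraries held 768 to 1462 TPM with vehicle and 161 to 788 TPM with CDDO-Me. NRF2 KO CM libraries held 590.2 to 2103 TPM with vehicle and 254 to 1341 TPM with CDDO-Me. Replicate 3 held the lowest stromal sum in each of the 8 groups. In bulk RNA, fewer cells of a type and less RNA per cell cannot be told apart, and the part of the stromal RNA in the results was not tested. Single markers of the other cell types were low: Epcam reached at most 0.272 TPM, Ly6g 0.989 TPM, Cd3e 0.19 TPM, Hba-a1 0.752 TPM and Flt3 0.239 TPM. Other epithelial genes were higher, with Krt19 up to 4.08 TPM and Krt18 up to 1.70 TPM. Cdh1 was at 0.0213 to 0.0594 TPM in media/vehicle, 3.06 to 4.04 TPM in WT CM/vehicle and 4.23 to 5.19 TPM in KEAP1 KO CM/vehicle. With CDDO-Me, Cdh1 was at 0 to 0.0210 TPM in WT CM and at 0.00906 to 0.0512 TPM in KEAP1 KO CM. Only the vehicle libraries of these CM were above 1 TPM for Cdh1. It passed the filter only through them, so its levels are a description. Krt19 fell past the test with CDDO-Me in both CM. S100a8, a neutrophil and inflammatory gene, ranged from 3.16 to 63.9 TPM and rose with CDDO-Me in the 3 CM but not past the test in media.

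Mt1 (ENSMUSG00000031765), Mt2 (ENSMUSG00000031762) and Mt3 (ENSMUSG00000031760) lie in a row on chromosome 8 of GRCm39, on the + strand, at 94905710 to 94906955, 94898819 to 94900207 and 94879220 to 94881088. A gap of 5.5 kb separated Mt2 from Mt1 and 17.7 kb separated Mt3 from Mt2, in the GENCODE annotation. Slc30a1 (ENSMUSG00000037434) is at chr1:191638808-191645361 and Mtf1 (ENSMUSG00000028890) at chr4:124695897-124743593, both on the + strand. Slc39a14 (ENSMUSG00000022094) is at chr14:70540678-70588914 on the - strand. Of the 31-base words in their transcripts, Mt1, Mt2 and Mt3 shared none with each other. Of the 1134 words of Mt2, 59.7% occurred in other genes, mainly in the antisense lncRNA Gm45774, which is not among the gene names of these data. Of the words of Mtf1, 7.87% occurred in the antisense gene 1110065P20Rik. Of those of Slc30a1, 7.64% occurred in the antisense lncRNA 1700034H15Rik, which is also not among the gene names. The sources used here do not say that strand was used in counting, so reads of these antisense pairs cannot be told apart.

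The start regions of Mt1, Mt2 and Slc30a1 are shown since MTF1 is a known regulator of all 3, and in WT CM Mt1 fell while Mt2 and Slc30a1 rose with the drug. Each sequence is the RefSeq promoter entry (table build GRCm38.p6), from 250 bases before to 30 bases after the annotated start, 5′ to 3′ in gene orientation, and was found once on its chromosome in GRCm39. The windows are chr8:94905467-94905746 for Mt1, chr8:94898996-94899275 for Mt2 and chr1:191638643-191638922 for Slc30a1, all on the + strand. Capitals mark matches, on either strand, to the MRE core (TGCACNC or TGCGCNC) or to the antioxidant response element core (ARE, TGACNNNGC), the element bound by NRF2.
Mt1: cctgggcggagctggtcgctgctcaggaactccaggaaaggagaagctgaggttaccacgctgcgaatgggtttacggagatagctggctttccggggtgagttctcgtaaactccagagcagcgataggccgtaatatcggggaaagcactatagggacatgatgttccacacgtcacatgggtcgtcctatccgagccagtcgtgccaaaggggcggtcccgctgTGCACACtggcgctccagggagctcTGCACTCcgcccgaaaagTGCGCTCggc
Mt2: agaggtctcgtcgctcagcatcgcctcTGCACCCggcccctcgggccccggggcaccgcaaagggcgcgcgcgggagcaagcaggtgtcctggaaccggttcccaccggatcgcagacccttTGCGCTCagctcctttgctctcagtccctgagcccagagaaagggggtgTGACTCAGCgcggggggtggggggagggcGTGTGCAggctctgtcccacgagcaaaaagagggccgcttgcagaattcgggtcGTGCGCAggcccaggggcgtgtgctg
Slc30a1: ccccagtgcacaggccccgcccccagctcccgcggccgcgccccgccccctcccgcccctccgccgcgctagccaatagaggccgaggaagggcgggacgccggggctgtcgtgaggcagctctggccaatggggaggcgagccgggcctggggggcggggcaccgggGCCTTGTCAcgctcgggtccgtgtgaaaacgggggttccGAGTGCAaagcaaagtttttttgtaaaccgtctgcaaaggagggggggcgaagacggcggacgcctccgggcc

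The Mt1 window held 3 MRE matches, at bases -23 to -17, 3 to 9 and 21 to 27 from the RefSeq start, and no ARE match within the window. Of all 32851 promoter windows of this length, 1.73% held at least 3 MRE matches. The Mt2 window held 4 MRE matches, a number reached by 0.405% of windows, and an ARE match at bases -79 to -71. The Slc30a1 window held 1 MRE match at bases -43 to -37 and 1 ARE match at bases -82 to -74. Of all windows, 24.1% held at least 1 MRE match and 11.5% at least 1 ARE match, and no MRE match overlapped an ARE match in these 3 windows. The windows of Mt3 and Mtf1 held no match to either core, and no entry was found for Slc39a14. Positions and matches depend on the RefSeq start, which lies inside the GENCODE span of each of these 3 genes. For Mt1 and Mt2 it may differ from the start site used elsewhere. The whole Mt2 window, from 94898996, lies inside the GENCODE span, which begins at 94898819. Each window ends 30 bases after the RefSeq start, so an ARE or MRE of Mt1 or Mt2 outside it was not looked for. A match is a description of letters, and no match says only that these letters are not in this window.

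The members spanned a wide range of levels. Mt1 was the most abundant, with a median of 356 TPM over the 24 libraries, a lowest value of 147 TPM and a highest of 667 TPM. Mt2 had a median of 107 TPM, with 47.2 TPM at the lowest and 387 TPM at the highest. Slc30a1 had a median of 33.5 TPM, Slc39a14 of 20.0 TPM and Mtf1 of 12.1 TPM. Mt3 had a median of 0.332 TPM and was listed at 0 in 4 libraries. Mt4, the squamous epithelial metallothionein at the far end of the cluster, did not pass the filter. Each member is plotted by library in its 8 groups.

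**Figure D1:**
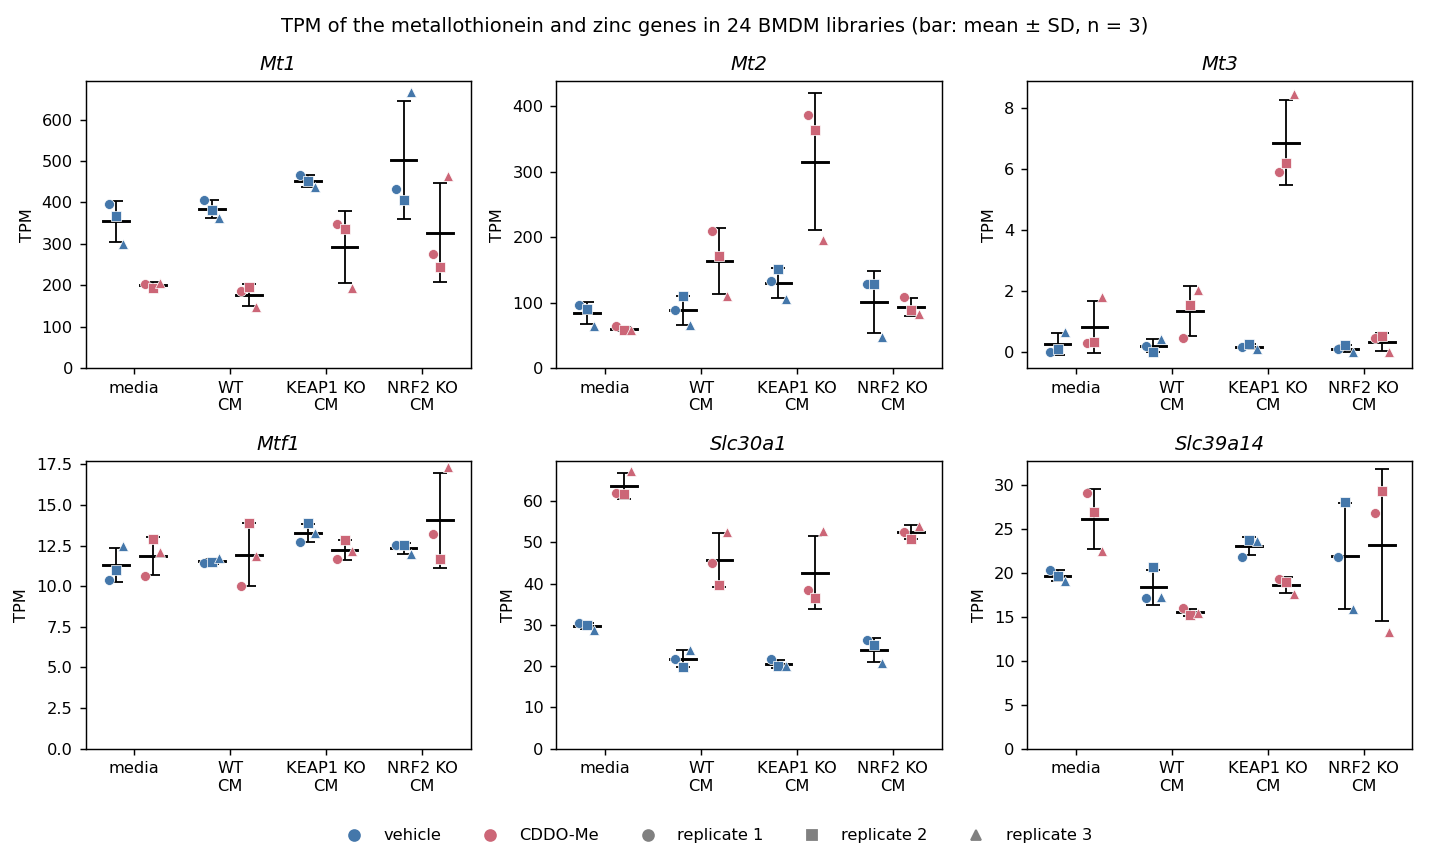
TPM (y axis, linear) of the 6 genes in the 4 media (x axis) with vehicle (blue) or CDDO-Me (red); each point is a library, its shape is the replicate number, and bars give the mean ± SD of 3 libraries. All 12 CDDO-Me libraries lie above all 12 vehicle libraries for Slc30a1, and the 3 KEAP1 KO CM/CDDO-Me libraries stand alone for Mt3.

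Mt1 was lower with CDDO-Me in each medium, and past the test in WT CM. In media/vehicle BMDMs it was at 397, 368 and 300.1 TPM, and in media/CDDO-Me BMDMs at 204, 194 and 207 TPM. In WT CM it was at 406, 382 and 363 TPM with vehicle and at 187, 196 and 147 TPM with CDDO-Me. In KEAP1 KO CM it was at 466, 452.5 and 437 TPM with vehicle and at 349, 335 and 193 TPM with CDDO-Me. The vehicle and drug libraries did not overlap in these 3 media, and replicate 3 of KEAP1 KO CM/CDDO-Me was far below its 2 companions. Mt1 in NRF2 KO CM was at 433, 407 and 667 TPM with vehicle and at 274, 244 and 463 TPM with CDDO-Me, where the groups overlapped and replicate 3 was the highest in each.

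In WT CM, Mt1 fell by 1.00 on the log2 scale (SE 0.25, adjusted p = 0.00403), and 27.9% of all genes tested passed in this comparison. In media the log2 fold change was -0.78 (SE 0.25, adjusted p = 0.0713), with 6% of genes called. In KEAP1 KO CM it was -0.51 (adjusted p = 0.142, 28.9% of genes called) and in NRF2 KO CM -0.61 (adjusted p = 0.152, 9.64% of genes called). The call in media turned past the threshold without replicate 3 of NRF2 KO CM/CDDO-Me (adjusted p = 0.0202), of NRF2 KO CM/vehicle (0.0272) or of KEAP1 KO CM/CDDO-Me (0.0488). Without both NRF2 KO CM replicate 3 libraries, the adjusted p was 0.00191 in media, 0.0131 in KEAP1 KO CM and 0.0333 in NRF2 KO CM, and without replicate 3 of NRF2 KO CM/CDDO-Me alone it was 0.0126 in NRF2 KO CM.

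Mt2 answered to the drug differently between media. It was at 97.0, 89.8 and 64.7 TPM in media/vehicle and at 63.8, 58.0 and 58.0 TPM in media/CDDO-Me BMDMs, lower with no overlap. In WT CM it was at 89.3, 111 and 65.7 TPM with vehicle and at 209, 171 and 111 TPM with CDDO-Me, with the lowest drug library just above the highest vehicle library. The KEAP1 KO CM libraries were at 133, 152 and 106 TPM with vehicle and at 387, 364 and 195 TPM with CDDO-Me, the highest level of the 8 groups. The NRF2 KO CM libraries were at 128, 129 and 47.2 TPM with vehicle and at 109, 89.6 and 82.5 TPM with CDDO-Me, and the groups overlapped.

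CDDO-Me raised Mt2 by 1.38 on the log2 scale in KEAP1 KO CM (SE 0.31, adjusted p = 0.00153) and of 0.98 in WT CM (SE 0.31, adjusted p = 0.02). The log2 fold change was -0.44 in media (adjusted p = 0.61) and 0.04 in NRF2 KO CM (adjusted p = 0.966). The effect of CDDO-Me on Mt2 in KEAP1 KO CM exceeded that in media by 1.82 (SE 0.43, adjusted p = 0.00579), and the effect in WT CM exceeded that in media by 1.42 (SE 0.43, adjusted p = 0.0299). In these tests of a difference in effect, 14.8% of all genes passed for KEAP1 KO CM and 15.3% for WT CM. The effect in NRF2 KO CM differed from that in media by 0.48 (95% interval -0.43 to 1.39, adjusted p = 1), in a test that called 0% of genes and 359 at an unadjusted p under 0.05. The effect in KEAP1 KO CM differed from that in WT CM by 0.40 (95% interval -0.51 to 1.31, adjusted p = 1), where the test also called 0% of genes and 226 were at an unadjusted p under 0.05.

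The rise of Mt2 in WT CM missed the threshold without WT CM/CDDO-Me replicate 1 (log2 fold change 0.77, adjusted p = 0.114), WT CM/CDDO-Me replicate 2 (adjusted p = 0.0554) or WT CM/vehicle replicate 3 (adjusted p = 0.0983), and with no scaling of the libraries (adjusted p = 0.0602). The difference between WT CM and media missed it, with adjusted p from 0.0514 to 0.0926, without any 1 of replicates 1 and 2 of media/vehicle, replicates 1 and 3 of WT CM/vehicle, replicates 2 and 3 of media/CDDO-Me, or replicates 1 and 2 of WT CM/CDDO-Me, and also with no scaling (0.0683) or no filter (0.0605). The calls of Mt2 in KEAP1 KO CM held in all 37 fits, the highest adjusted p being 0.0126 for the rise and 0.0203 for its difference from media.

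Compared between media under CDDO-Me, Mt2 was higher in KEAP1 KO CM than in media by 2.46 on the log2 scale (SE 0.31, adjusted p = 4.48e-06) and in WT CM by 1.56 (SE 0.31, adjusted p = 0.00062). The background was high, with 22.6% and 26.7% of all genes called. For NRF2 KO CM the difference was 0.64 (adjusted p = 0.69), with 0.19% of genes called. Mt1 differed from media/CDDO-Me by 0.63 in KEAP1 KO CM (adjusted p = 0.0764) and by -0.02 in WT CM (adjusted p = 0.969). For Mt1 in KEAP1 KO CM the adjusted p was 0.0223 without replicate 3 of that group, 0.0342 without NRF2 KO CM/vehicle replicate 3 0.026 without NRF2 KO CM/CDDO-Me replicate 3 and 0.00338 without both of the latter.

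The ratio of Mt2 to Mt1 within a library put the opposite movements together. It was 0.216 to 0.244 in media/vehicle, 0.181 to 0.289 in WT CM/vehicle and 0.243 to 0.336 in KEAP1 KO CM/vehicle BMDMs. With CDDO-Me it was 0.281 to 0.313 in media but 0.751 to 1.12 in WT CM and 1.01 to 1.11 in KEAP1 KO CM. These 6 libraries were the only ones of the 24 with a ratio above 0.4. In NRF2 KO CM the ratio was 0.296, 0.317 and 0.0709 with vehicle and 0.396, 0.367 and 0.178 with CDDO-Me. Over the 24 libraries, Mt1 and Mt2 had a Pearson r of -0.05 on the log2 scale, given as a description since libraries of a group share a treatment.

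**Figure D2:**
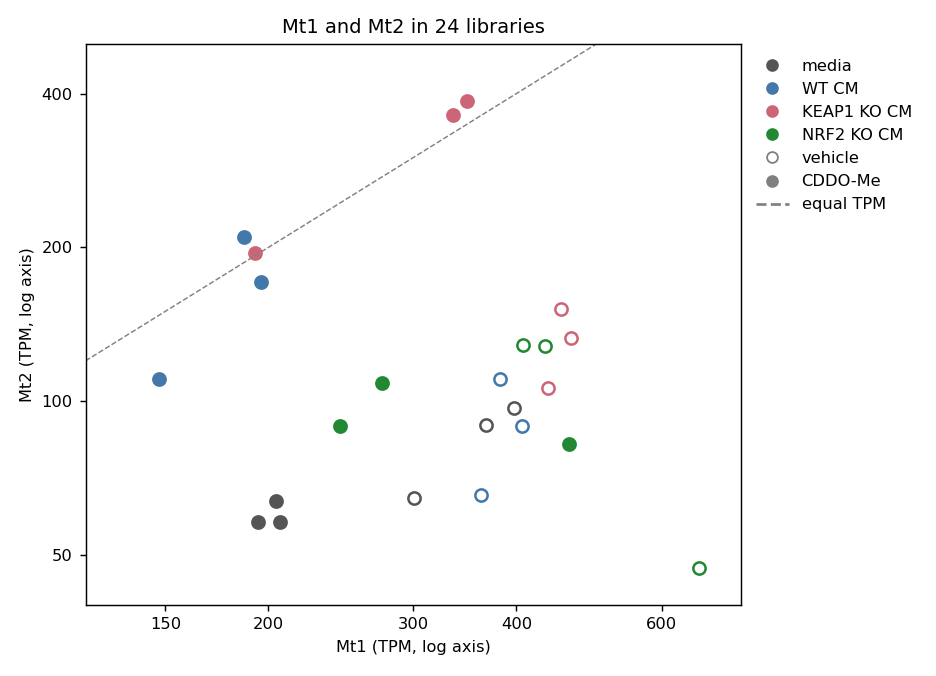
Mt2 against Mt1 (TPM, both axes logarithmic) in 24 libraries, coloured by medium; open points are vehicle, filled points CDDO-Me, and the dashed line marks equal TPM. The 6 CDDO-Me libraries of WT CM and KEAP1 KO CM lie near the line, at ratios of 0.751 to 1.12, and the other 18 lie below it.

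Replicate 3 of KEAP1 KO CM/CDDO-Me was the lowest of its group in Mt1 and Mt2 and had a summed stromal level of 161 TPM, against 645 and 788 TPM in replicates 1 and 2. In WT CM/CDDO-Me, replicate 3 was likewise the lowest in Mt1 and Mt2, with a stromal sum of 205 TPM against 372 and 585 TPM. Stromal sums had lower medians with CDDO-Me than with vehicle in these media, with overlapping ranges. Mt2 was higher with the drug in both. The ratio of Mt2 to Mt1 in KEAP1 KO CM/CDDO-Me replicate 3 was 1.01, close to the 1.08 and 1.11 of the other 2 libraries. The part of stromal RNA in the metallothionein levels was not tested.

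Mt3, best known from neurons, was near 0 in vehicle BMDMs and highest in KEAP1 KO CM with CDDO-Me. In vehicle libraries it was at 0, 0.114 and 0.671 TPM in media, at 0.217, 0 and 0.444 TPM in WT CM, at 0.186, 0.264 and 0.104 TPM in KEAP1 KO CM, and at 0.106, 0.232 and 0 TPM in NRF2 KO CM. With CDDO-Me it was at 5.92, 6.20 and 8.45 TPM in KEAP1 KO CM, above every other library. In WT CM/CDDO-Me BMDMs it was at 0.452, 1.55 and 2.04 TPM, and in media/CDDO-Me at 0.318, 0.345 and 1.82 TPM. In NRF2 KO CM/CDDO-Me BMDMs it was at 0.478, 0.516 and 0 TPM.

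Mt3 passed the filter only through 6 CDDO-Me libraries above 1 TPM, 3 of them from KEAP1 KO CM, and no vehicle library was above 1 TPM. A gene that enters through the groups where it is high has to differ from the others, so its fold changes are given as a description and not as tests. With CDDO-Me against vehicle, the log2 fold change was 2.82 in KEAP1 KO CM, 0.96 in WT CM, 0.48 in media and 0.23 in NRF2 KO CM. Since the levels are low, the size depended on the pseudocount, and over the other settings the value in KEAP1 KO CM ranged from 1.25 to 4.78.

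Mtf1, the zinc sensor that drives metallothionein transcription, stayed in a narrow range. It was at 10.4 to 13.9 TPM in the 12 vehicle libraries and at 10.0 to 17.3 TPM in the 12 CDDO-Me libraries. The highest value was in NRF2 KO CM/CDDO-Me replicate 3, one of the libraries that stood apart. The log2 fold change with CDDO-Me was 0.08 in media (95% interval -0.21 to 0.37), 0.15 in WT CM (-0.14 to 0.44), 0.04 in KEAP1 KO CM (-0.25 to 0.33) and 0.19 in NRF2 KO CM (-0.10 to 0.48). In a list of 7 genes that depend on MTF1 in the literature, Mt2, Slc30a1, Selenow and Ndrg1 rose and Mt1 fell with CDDO-Me in WT CM, and the same 4 rose in KEAP1 KO CM. The other listed genes, Slc39a10 and Csrp1, passed with the drug in neither CM. The list's median log2 fold change was 0.70 in WT CM and 0.99 in KEAP1 KO CM, beside -0.02 and -0.03 over all genes tested. Mt1, Mt2 and Slc30a1 are in the list, so its median partly restates their changes. The list does not give the direction in which MTF1 acts on each gene, so its median is not a measure of MTF1 activity. Of all genes, 27.9% were called in WT CM and 28.9% in KEAP1 KO CM. Slc30a1 alone passed in media and in NRF2 KO CM. Selenow, a selenoprotein, went from a mean of 65.1 to 140.3 TPM in WT CM (log2 fold change 1.21, adjusted p = 8.12e-05), and Ndrg1, a stress and hypoxia gene, from 21.9 to 40.7 TPM in KEAP1 KO CM (0.99, adjusted p = 0.00244).

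**Figure D3:**
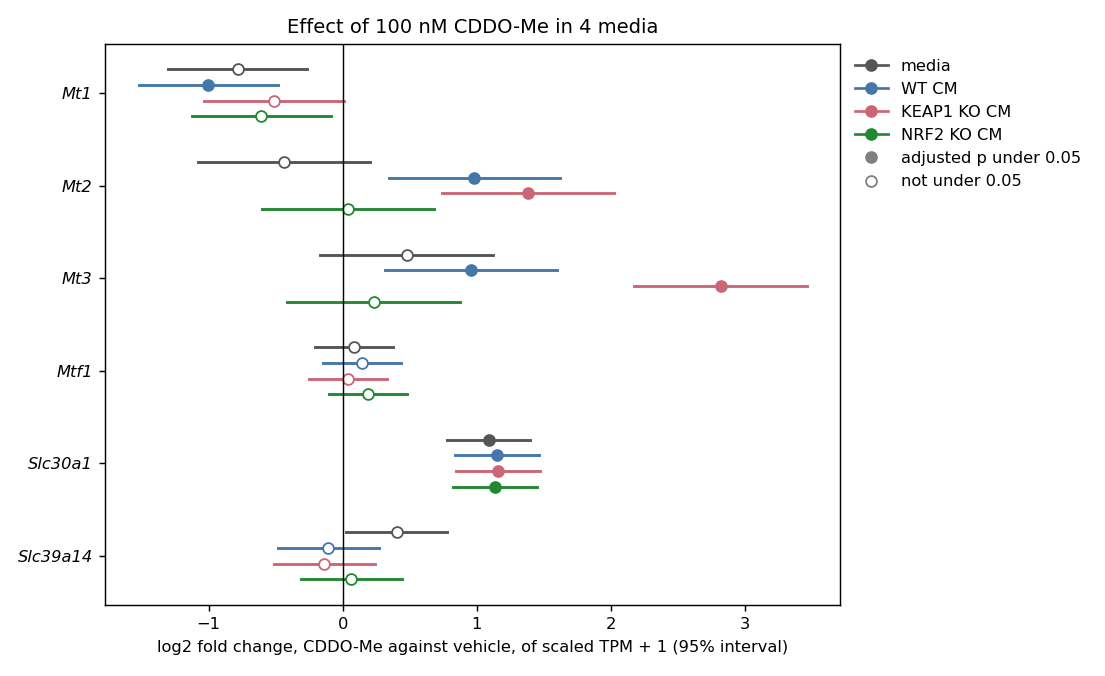
Log2 fold change of CDDO-Me against vehicle (x axis, scaled TPM plus 1) for the 6 genes in 4 media; points are estimates, lines 95% intervals, and filled points have an adjusted p under 0.05. Slc30a1 sits between 1.09 and 1.16 in all 4 media, Mt1 is left of 0 in all 4, and Mt2 and Mt3 are furthest right in KEAP1 KO CM. Mt3 entered the test only through its CDDO-Me libraries, so its filled points are a description.

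Slc30a1, which moves zinc out of the cytosol, had the steadiest response to CDDO-Me of the 6 genes. In media it was at 30.4, 29.98 and 28.8 TPM with vehicle and at 62.0, 61.6 and 67.3 TPM with the drug. In WT CM it was at 21.6, 19.7 and 24.0 TPM with vehicle and at 45.1, 39.6 and 52.6 TPM with the drug. BMDMs in KEAP1 KO CM were at 21.6, 20.0 and 19.9 TPM with vehicle and at 38.4, 36.6 and 52.8 TPM with the drug. BMDMs in NRF2 KO CM were at 26.2, 25.0 and 20.7 TPM with vehicle and at 52.6, 50.9 and 54.1 TPM with the drug. The lowest drug library, at 36.6 TPM, stood above the highest vehicle library, at 30.4 TPM.

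The log2 fold change of Slc30a1 was 1.09 in media (adjusted p = 7.87e-05), 1.15 in WT CM (4.72e-06), 1.16 in KEAP1 KO CM (4.46e-06) and 1.14 in NRF2 KO CM (3.32e-05), with an SE of 0.15 in each. These calls held in all 37 fits of each comparison. The effect in WT CM differed from that in media by 0.06 (95% interval -0.38 to 0.51), in KEAP1 KO CM by 0.07 (-0.37 to 0.51) and in NRF2 KO CM by 0.05 (-0.39 to 0.49). These intervals leave room for differences between media on either side of 0. Slc30a1 was the member with the largest absolute change in media, ranking 387 of 13661 genes, while its rank was 1533 in KEAP1 KO CM.

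The level of Slc30a1 was lower in KEAP1 KO CM than in media. With vehicle it was lower in KEAP1 KO CM than in media by -0.51 on the log2 scale (SE 0.15, adjusted p = 0.0396, 8.03% of genes called). It differed by -0.36 in WT CM (adjusted p = 0.179, 7.25% of genes called) and by -0.31 in NRF2 KO CM (adjusted p = 0.409, 0.00732% of genes called). Under CDDO-Me it was lower in KEAP1 KO CM than in media by -0.44 (SE 0.15, adjusted p = 0.0391), with -0.30 in WT CM (adjusted p = 0.157) and -0.26 in NRF2 KO CM (adjusted p = 0.779). In unscaled TPM, the libraries of each CM lay below those of media without overlap, with vehicle and with the drug. In library-scaled TPM this did not hold for WT CM and KEAP1 KO CM under CDDO-Me. Their replicate 3 libraries, at 59.2 and 59.7, lay above media/CDDO-Me replicate 2, at 57.7. The KEAP1 KO CM call with vehicle was lost, with adjusted p from 0.0505 to 0.143, on leaving out any library of either group, WT CM/vehicle replicate 1, media/CDDO-Me replicate 1 or WT CM/CDDO-Me replicate 1. The call under CDDO-Me was lost without any media/CDDO-Me library or without replicates 1 or 2 of KEAP1 KO CM/CDDO-Me, with adjusted p from 0.0527 to 0.197 and a log2 fold change between -0.64 and -0.30 over all libraries left out. It was also lost with no filter (adjusted p = 0.0587) and with the compared groups alone (adjusted p = 0.102), and the call with vehicle with no filter (0.058) or a pseudocount of 5 (0.0512).

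Among the other zinc exporters, Slc30a4, which loads zinc into vesicles, was higher in WT CM and KEAP1 KO CM, while NRF2 KO CM/vehicle BMDMs had a mean of 13.7 TPM. It rose from a mean of 12.0 TPM in media/vehicle to 29.97 TPM in WT CM/vehicle (log2 fold change 1.29, SE 0.17, adjusted p = 4.52e-05) and to 30.8 TPM in KEAP1 KO CM/vehicle BMDMs (1.28, adjusted p = 4.45e-05). CDDO-Me brought it down to 9.88 TPM in WT CM (-1.37, adjusted p = 3.51e-06) and to 12.2 TPM in KEAP1 KO CM (-1.11, adjusted p = 4e-05). It was higher in WT CM than in NRF2 KO CM with vehicle by 1.12 (adjusted p = 0.000223), a comparison that called 10.8% of genes and none of the 6 members. Slc30a7, a zinc transporter of the Golgi, rose with CDDO-Me in KEAP1 KO CM from 22.9 to 38.9 TPM (0.89, adjusted p = 0.00479). Of the 10 listed Slc30 genes, 6 were tested. With CDDO-Me, 1 rose and 0 fell in media and in NRF2 KO CM, 1 rose and 1 fell in WT CM, and 2 rose and 1 fell in KEAP1 KO CM, beside 6%, 9.64%, 27.9% and 28.9% of all genes called. Slc30a5, Slc30a6 and Slc30a9 passed in none of the 16 comparisons.

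Slc39a14, an importer, kept between 13.2 and 29.3 TPM. It was at 20.3, 19.7 and 19.1 TPM in media/vehicle and at 29.1, 26.9 and 22.4 TPM in media/CDDO-Me BMDMs, higher without overlap. In WT CM it was at 17.1, 20.6 and 17.3 TPM with vehicle and at 16.0, 15.2 and 15.4 TPM with CDDO-Me. These unscaled values did not overlap, but library-scaled values did, at 17.2 to 20.4 with vehicle and 16.1 to 17.8 with CDDO-Me. In KEAP1 KO CM Slc39a14 was at 21.8, 23.7 and 23.6 TPM with vehicle and at 19.3, 19.0 and 17.5 TPM with CDDO-Me, lower without overlap. In NRF2 KO CM it was at 21.7, 28.0 and 15.9 TPM with vehicle and at 26.8, 29.3 and 13.2 TPM with CDDO-Me, with replicate 3 the lowest in each.

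The log2 fold change of Slc39a14 with CDDO-Me was 0.40 in media (SE 0.18, adjusted p = 0.263), -0.11 in WT CM (0.743), -0.14 in KEAP1 KO CM (0.649) and 0.06 in NRF2 KO CM (0.899). Under CDDO-Me it was lower in WT CM than in media by -0.54 (SE 0.18, adjusted p = 0.0315), a call lost without replicates 1 or 2 of media/CDDO-Me or any WT CM/CDDO-Me library, with adjusted p from 0.0583 to 0.118, and with no filter (0.0526). In KEAP1 KO CM under CDDO-Me it differed from media by -0.32 (adjusted p = 0.235, and 0.00664 without both NRF2 KO CM replicate 3 libraries). With vehicle, WT CM differed from NRF2 KO CM by -0.14 (adjusted p = 0.631), and by -0.30 (0.0398) without those libraries. In media the adjusted p was 0.047 without NRF2 KO CM/CDDO-Me replicate 3 and 0.00321 without both NRF2 KO CM replicate 3 libraries. The effect of CDDO-Me differed from that in media by -0.51 in WT CM (adjusted p = 0.226) and by -0.54 in KEAP1 KO CM (adjusted p = 0.191). These were 0.0431 and 0.0329 without NRF2 KO CM/CDDO-Me replicate 3, and 0.00417 and 0.00264 without both replicate 3 libraries.

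Other Slc39 importers moved more than Slc39a14. Slc39a4 (ZIP4), the zinc importer of the gut, rose with CDDO-Me in all 4 media: from a mean of 0.906 to 9.26 TPM in media (log2 fold change 2.44, adjusted p = 8.57e-06), 0.413 to 5.54 TPM in WT CM (2.33, 1.59e-06), 0.385 to 7.58 TPM in KEAP1 KO CM (2.72, 2.1e-07) and 1.48 to 18.1 TPM in NRF2 KO CM (2.94, 5.87e-07). Slc39a8 (ZIP8), an importer of zinc and manganese, fell in all 4, from 9.66 to 3.92 TPM in media (-1.10, adjusted p = 0.000145), 8.22 to 1.65 TPM in WT CM (-1.69, 7.04e-08), 9.08 to 1.85 TPM in KEAP1 KO CM (-1.70, 6.44e-08) and 10.3 to 4.38 TPM in NRF2 KO CM (-1.04, 0.000184). Slc39a6 rose from 42.1 TPM in media/vehicle to 55.9 TPM in WT CM/vehicle (0.47, adjusted p = 0.00639) and 59.3 TPM in KEAP1 KO CM/vehicle (0.48, adjusted p = 0.00495). With CDDO-Me it fell to 27.8 TPM in WT CM (-0.87, adjusted p = 1.87e-06) and to 32.9 TPM in KEAP1 KO CM (-0.67, adjusted p = 4.19e-05).

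Slc39a12 fell in the same pair of media, from means of 1.89 and 2.07 TPM to 0.619 and 0.431 TPM. Slc39a10 was lower in KEAP1 KO CM/CDDO-Me than in media/CDDO-Me BMDMs, at 17.6 against 29.2 TPM (-0.56, adjusted p = 0.0202). Of the 14 listed Slc39 genes, 12 were tested. With CDDO-Me, 1 rose and 1 fell in media and in NRF2 KO CM, and 1 rose and 3 fell in WT CM and in KEAP1 KO CM. The shares of all genes called were 6%, 9.64%, 27.9% and 28.9%, and the Slc39 counts in WT CM and KEAP1 KO CM were near them. The list's median log2 fold change with the drug lay between -0.06 and 0.08.

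**Figure D4:**
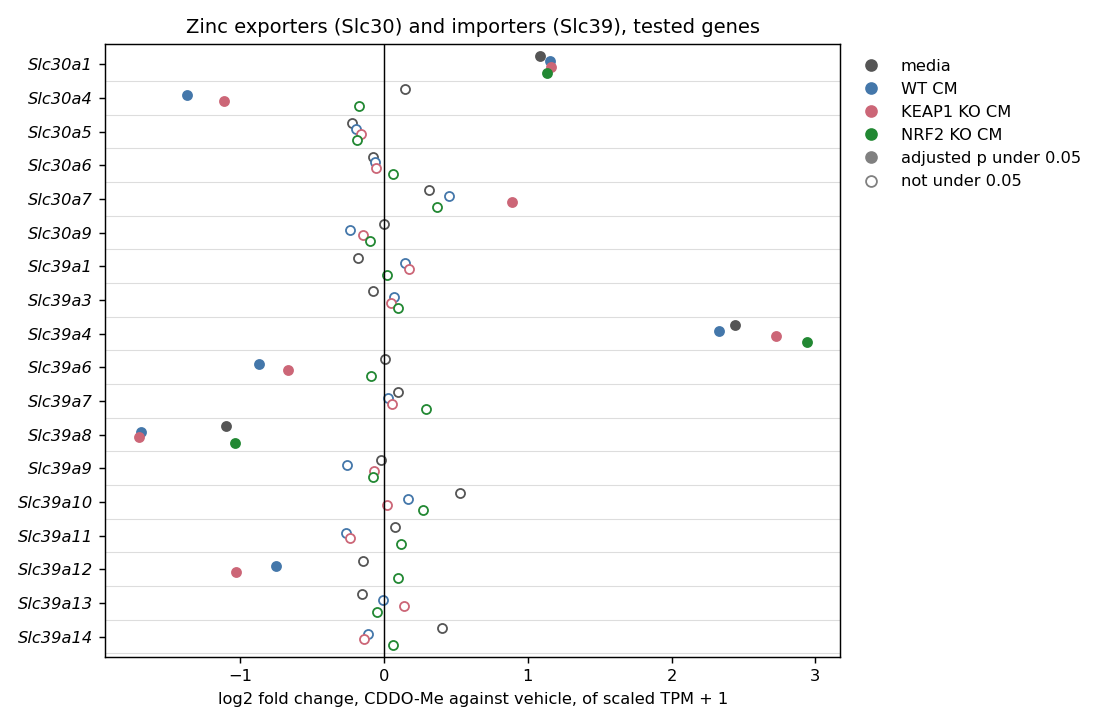
Log2 fold change of CDDO-Me against vehicle (x axis, scaled TPM plus 1) for the tested zinc exporters (Slc30) and importers (Slc39) in 4 media; filled points have an adjusted p under 0.05. Slc30a1 and Slc39a4 are right of 0 and Slc39a8 left of 0 in all 4 media, and Slc30a4 and Slc39a6 are left of 0 past the test in WT CM and KEAP1 KO CM.

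Copper genes, which share the metallothioneins' metals, were counted for comparison. Of 10 tested, 1 rose with CDDO-Me in media, 4 rose and 1 fell in WT CM and in KEAP1 KO CM, and 1 fell in NRF2 KO CM, beside 6%, 27.9%, 28.9% and 9.64% of all genes called. Slc31a1 (CTR1), the copper importer, rose from 44.6 to 115.6 TPM in WT CM (log2 fold change 1.47, adjusted p = 1.11e-06) and from 47.5 to 117 TPM in KEAP1 KO CM (1.45, adjusted p = 1.38e-06). Its response exceeded that in media by 1.55 in WT CM (adjusted p = 9.63e-05) and by 1.52 in KEAP1 KO CM (adjusted p = 0.000125). Atp7a, the copper-exporting ATPase, rose in media (0.51, adjusted p = 0.0243), WT CM (1.09, adjusted p = 2.34e-06) and KEAP1 KO CM (0.91, adjusted p = 2.03e-05). The ferroxidase Cp fell in WT CM from 17.9 to 4.80 TPM (-1.57, adjusted p = 0.00997), in KEAP1 KO CM from 15.8 to 5.47 TPM (-1.25, adjusted p = 0.0382) and in NRF2 KO CM from 20.9 to 7.01 TPM (-1.45, adjusted p = 0.0423).

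NRF2 targets were listed since CDDO-Me activates NRF2. With the drug, 9 of 9 rose in media and in NRF2 KO CM, 7 in WT CM and 8 in KEAP1 KO CM. Their median log2 fold changes were 2.11, 2.48, 1.39 and 1.91, beside 6%, 9.64%, 27.9% and 28.9% of all genes called. In WT CM the response of 3 of them was smaller than in media past the test, Hmox1 by -0.79 (adjusted p = 0.0308) among them. That test called 15.3% of all genes.

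Between KEAP1 KO CM and WT CM with vehicle, none of the 6 genes passed the test, in a comparison that called 0% of genes by limma and 349 at an unadjusted p under 0.05. The log2 difference was 0.16 for Mt1 (95% interval -0.36 to 0.68), 0.50 for Mt2 (-0.14 to 1.14), -0.15 for Slc30a1 (-0.46 to 0.17) and 0.25 for Slc39a14 (-0.13 to 0.62). The libraries did not overlap for Mt1, Mtf1 and Slc39a14. With 3 against 3 libraries that do not differ, a gene separates with a probability of 0.1. The share of all genes that separate was not counted, so no difference is drawn from this. With array weights Mt2 (limma adjusted p = 0.0454) and Slc39a14 (0.0464) passed, in a setting that called 987 genes here against 0 in the main fit. Mt2 in KEAP1 KO CM/vehicle was above media/vehicle without overlap, by 0.64 (95% interval -0.003 to 1.28, adjusted p = 0.266). Of the 6 members, 0 passed in WT CM, 1 in KEAP1 KO CM and 0 in NRF2 KO CM against media with vehicle. All genes gave 7.25%, 8.03% and 0.00732% there. With CDDO-Me against vehicle, Slc30a1 passed in all 4 media, Mt2 in WT CM and KEAP1 KO CM, and Mt1 in WT CM. Mt3 is left out here, since it entered the test only through its CDDO-Me libraries. All genes gave 6% in media, 27.9% in WT CM, 28.9% in KEAP1 KO CM and 9.64% in NRF2 KO CM.

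The genes with the most similar pattern were found by Pearson correlation of log2 values over the 24 libraries, as a description without a test. Slc30a1 was nearest to Dgkg (r = 0.97), a diacylglycerol kinase, Sfn (0.96) and G6pdx (0.96), the first enzyme of the pentose phosphate pathway. Mt1 was nearest to Medag (0.87), Ifitm6 (0.86) and Asah2 (0.85). Mt2 was nearest to Pla1a (0.93), Socs3 (0.91), an inhibitor of cytokine signalling, and Ido1 (0.88), a tryptophan-degrading enzyme induced by interferon. Mt3 was nearest to Cacng8 (0.92), Slc4a11 (0.87) and Egfl8 (0.87), and Slc39a14 to Pcbp4 (0.87), B4galt2 (0.85) and Ncs1 (0.84). Mtf1 reached at most 0.78, with Gm12286. The 24 libraries share treatments within groups, so these values are not independent.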

How the data were processed

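RNA of 24 BMDM libraries was analysed. Per the study's methods, sequencing of poly-A RNA was done at Novogene, reads were quantified against GRCm39 transcripts by Kallisto, and limma followed filtering and TMM. The deposited table holds TPM per gene name, which the authors scaled to a fixed sum in each library. Its name speaks of counts, which its values are not. The depth is unknown, so no interval or floor that needs it is given. A line without a gene name (0.0199% to 0.0635% of TPM) was left out. Library factors were trimmed means of M values (trims 30% on M, 5% on A, no weights), and log2 of scaled TPM plus 1 was fitted with limma 3.58.1 in R 4.3.3 as 8 group means over 24 libraries (16 residual degrees of freedom, eBayes with trend). Genes above 1 TPM in at least 3 libraries were tested (13661 of 35770). P-values are two-sided, adjusted by Benjamini-Hochberg per comparison, and measure only the spread between these libraries, which may be technical.

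The 16 comparisons shared control groups. The 6 members, gene lists and markers were chosen with earlier results of these data known. Named genes were all members, up to 3 genes per list and comparison with the largest absolute change past the threshold, and the 3 genes most correlated with each member; a list gene outside that rule was named after its values were seen. The fit was tested on simulated data. Alternatives were another scaling, no scaling, other filters and pseudocounts, no trend, array weights, a replicate block, the compared groups alone, and libraries left out. Same-numbered libraries deviated together, with every correlation above 0.1, in 7 of 12 comparisons of 2 groups, and their lowest correlation in the others was 0.0623; the labels do not say what a number marks. Of the gene names, 35670 matched GENCODE symbols, and promoter sequences came from RefSeq (GRCm38.p6).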

Additional observations from a re-analysis of the deposited data

Results flagged for a closer look

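The effect of CDDO-Me on Mt2 differed between media in the test of the difference itself. For Mt2 the effect in WT CM exceeded that in media by 1.42 on the log2 scale (SE 0.43, limma adjusted p = 0.0299), and the effect in KEAP1 KO CM exceeded it by 1.82 (SE 0.43, limma adjusted p = 0.00579). Mt2 was higher with the drug in 3 of 3 libraries of each of these CM and lower in 3 of 3 libraries of media. For Mt3 the fitted difference between KEAP1 KO CM and media was 2.34 (SE 0.44). Mt3 entered the test only through CDDO-Me libraries and had no vehicle library above 1 TPM, so this is a description, and with a pseudocount of 0.1 it missed the threshold (limma adjusted p = 0.0808). This test called 15.3% of all genes in WT CM and 14.8% in KEAP1 KO CM. No group had the 4 samples needed to look for a single outlying library.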

How the results depend on the processing

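Of 96 values (6 genes in 16 comparisons), 18 passed the threshold and 11 of these passed in every fit run, while 57 passed in none. The 18, the 11 and the numbers of members passing below include Mt3. It entered the test only through its CDDO-Me libraries, so its part in these counts is a description. With another size-factor scaling, a filter of TPM above 5, no trend or a pseudocount of 0.5, all 96 kept direction and side of the threshold. The number of members passing with vehicle in WT CM against media went from 0 to 1 with no scaling, array weights or the compared groups alone. In KEAP1 KO CM against media it went from 1 to 0 with no filter or a pseudocount of 5, to 3 with array weights, and to 2 with the compared groups alone or the replicate block. For KEAP1 KO CM against WT CM it went from 0 to 2, and for WT CM against NRF2 KO CM from 0 to 1, with array weights, the latter also without both NRF2 KO CM replicate 3 libraries. For CDDO-Me in media it went from 1 to 2 with no scaling, to 4 with array weights and to 3 without both NRF2 KO CM replicate 3 libraries or with the compared groups alone. In NRF2 KO CM it went from 1 to 2 with array weights or without those libraries. For the difference in effect between WT CM and media it went from 1 to 0 with no scaling or no filter, and to 2 with array weights, without those libraries or with the compared groups alone. Between KEAP1 KO CM and media it went from 2 to 1 with a pseudocount of 0.1 and to 4 with array weights, and between KEAP1 KO CM and WT CM from 0 to 1 with array weights. Under CDDO-Me it went from 2 to 1 in WT CM with no filter, from 3 to 5 in KEAP1 KO CM with array weights or without those libraries, and from 0 to 2 in NRF2 KO CM with array weights. The cause of these shifts was not tested.

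With 1 library left out, the number passing ranged from 0 to 1 in KEAP1 KO CM against media with vehicle, 1 to 3 for CDDO-Me in media, 2 to 4 in WT CM, 1 to 2 in NRF2 KO CM, 0 to 2 for the difference between WT CM and media, and 1 to 3 in WT CM against media under CDDO-Me. The replicate block changed 1 call among the 96, Mt2 in KEAP1 KO CM against media with vehicle (0.64, limma adjusted p = 0.0479), in a comparison where replicate 1 libraries correlated at 0.0968 only.

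Direction reversed in 73 fits of 28 values, none past the threshold. For Mt3 with vehicle, WT CM against media was 0.063 with a pseudocount of 0.1 and 0.050 with array weights, KEAP1 KO CM against media 0.11 and 0.044, and KEAP1 KO CM against WT CM 0.046 with a pseudocount of 0.1. With no scaling, Mtf1 was -0.11 for CDDO-Me in KEAP1 KO CM and -0.030 for the difference in WT CM, and the difference for Slc30a1 was -0.039 in WT CM, -0.072 in KEAP1 KO CM and -0.034 between KEAP1 KO CM and WT CM. With array weights, CDDO-Me in NRF2 KO CM gave -0.28 for Mt2, and differences from media were 0.025 for Mtf1 and -0.030 for Slc30a1 in KEAP1 KO CM and 0.067 for Mt3 and -0.016 for Slc30a1 in NRF2 KO CM. Slc30a1 between KEAP1 KO CM and WT CM was -0.15 with array weights and -0.0047 with a pseudocount of 5. Under CDDO-Me, array weights gave 0.064 for Mt1 in WT CM and 0.054 for Mt3 in NRF2 KO CM. Without both NRF2 KO CM replicate 3 libraries, NRF2 KO CM gave -0.35 for Mt2 with the drug, differences from media of -0.067 for Mtf1 and -0.076 for Slc30a1, and 0.069 for Slc39a14 under CDDO-Me.

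With 1 library left out, values that reversed ranged, with vehicle against media, from -0.026 to 0.32 (Mt2, WT CM), -0.16 to 0.20 (Mt3, WT CM), -0.098 to 0.020 (Slc39a14, WT CM), -0.20 to 0.16 (Mt3, KEAP1 KO CM), -0.075 to 0.59 (Mt2, NRF2 KO CM), -0.30 to 0.063 (Mt3, NRF2 KO CM) and -0.022 to 0.27 (Slc39a14, NRF2 KO CM). They ranged from -0.18 to 0.090 for Mt3 in KEAP1 KO CM against WT CM, and in WT CM against NRF2 KO CM from -0.45 to 0.22 (Mt2), -0.059 to 0.0016 (Mtf1) and -0.14 to 0.022 (Slc30a1). With CDDO-Me in NRF2 KO CM they ranged from -0.39 to 0.27 (Mt2), -0.0080 to 0.33 (Mtf1) and -0.11 to 0.36 (Slc39a14). Differences in effect from media ranged from -0.016 to 0.16 (Mtf1) and -0.056 to 0.19 (Slc30a1) in WT CM, -0.12 to 0.0097 (Mtf1) and -0.13 to 0.21 (Slc30a1) in KEAP1 KO CM, and -0.15 to 0.44 (Mt1), -0.46 to 0.13 (Mt3), -0.090 to 0.26 (Mtf1) and -0.022 to 0.12 (Slc30a1) in NRF2 KO CM. Between KEAP1 KO CM and WT CM they ranged from -0.19 to 0.14 (Slc30a1) and -0.098 to 0.020 (Slc39a14), and under CDDO-Me against media from -0.081 to 0.087 (Mt1, WT CM) and -0.38 to 0.068 (Slc39a14, NRF2 KO CM).

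Over all genes, array weights called 4155 against 991 in WT CM and 5031 against 1097 in KEAP1 KO CM with vehicle, 987 against 0 between these CM, and 3509 against 820 for CDDO-Me in media. Without both NRF2 KO CM replicate 3 libraries these were 2554, 2852 and, in media with the drug, 2025, and with the replicate block 1748, 1791 and 1465. For CDDO-Me in WT CM and KEAP1 KO CM, array weights called 7155 against 3805 and 7023 against 3942. With the compared groups alone, CDDO-Me in NRF2 KO CM called 139 against 1317. With no scaling the median over all genes moved to -0.12 for CDDO-Me in WT CM and -0.17 in KEAP1 KO CM. The depth is unknown, which limits the precision that can be stated for Mt3.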
